A study of Mus musculus with 23 samples.

Results

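The mouse inguinal mammary fat pad encloses a lymph node, and 11 of the 23 tumor-adjacent fat pad libraries of the study carried the RNA of one. They were picked by Glycam1 (ENSMUSG00000022491, GRCm38 chromosome 15, 103562759 to 103565081), which high endothelial venules, the vessels through which lymphocytes enter a node, are known for. Estimated read counts were summed per gene and divided by the library total to give CPM, and libraries at or above 10 CPM of Glycam1 were kept. These were 7 libraries of lean and 4 of obese mice, out of 10 lean and 13 obese mice in all. The values used for that choice are given as a description only: Glycam1 ran from 117 to 890 CPM in the 7 lean libraries (median 265) and stood at 647, 630, 1326 and 1917 CPM in the 4 obese ones. The lowest library kept, lean anti-PD-1 5, had 117 CPM, and the highest left out, obese IgG2a 5, had 0.498 CPM, so that thresholds of 1 or 100 CPM picked the same libraries.

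All mice were female C57BL/6J with an intact immune system, and all carried a tumor from 250000 luciferase-marked E0771 cells, a line of mouse mammary carcinoma, placed in mammary gland 4. Between weeks 8 and 26 of age, chow in which fat gave 60% of the energy made the obese mice, and lean mice had 10%, although the treatment notes mention only the high-fat chow for all samples. From day 3 to day 21 the mice were given 200 µg of anti-PD-1, which blocks a checkpoint receptor on T cells, or of the isotype control IgG2a, every 3 days. The libraries with node were lean IgG2a 1 to 4, lean anti-PD-1 1, 3 and 5, obese IgG2a 1 and 3, and obese anti-PD-1 3 and 4, each from a different mouse, and no group of mice without a tumor was among them. The 12 libraries without node were 3 lean (1 IgG2a, 2 anti-PD-1) and 9 obese (3 IgG2a, 6 anti-PD-1). Replicate numbers were given in the order of deposition and pair nothing. Values of the 4 obese libraries with node are listed throughout in the order anti-PD-1 3, anti-PD-1 4, IgG2a 1, IgG2a 3.

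A lymph node filters the lymph that drains from a tissue and brings antigen together with lymphocytes. B cells gather in follicles around stroma that makes the chemokine CXCL13, T cells gather in a zone where reticular stroma makes CCL19 and CCL21, and macrophages line the sinuses that lymph flows through. Lymphotoxin from lymphocytes keeps the stroma and the high endothelial venules in their specialised state, and the fat around the node supplies it with fatty acids. The design allows the question how obese mice differed from lean mice among pads with node, with the antibody as a covariate, and whether that difference was of another size in pads without node.

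The marker genes bore out the presence of node RNA in all 11 libraries. Ccl21a, the T-zone chemokine gene, ran from 107 to 1690 CPM in them and reached at most 1.29 CPM in the other 12, and Cd79a, a chain of the B cell receptor, ran from 123 to 1134 CPM against at most 1.57 CPM. Both ranges are shown library by library in the plot of node markers. Library totals were 49371543 to 75565863 estimated counts, and the labels give no batch. Mammary epithelium RNA also moved with diet in these 11 libraries, and muscle RNA varied among them. The mean log2 CPM of 16 mammary epithelium genes was 3.34 to 4.62 in obese and 4.80 to 5.98 in lean libraries, with no overlap, summing to 639 to 1400 against 1548 to 2885 CPM. The 13 skeletal muscle genes summed to 30.8 to 405 CPM in obese and 28.6 to 2901 CPM in lean libraries, which overlapped, and their score passed 3 in lean anti-PD-1 1, lean IgG2a 1, lean IgG2a 2 and obese IgG2a 3. The defining genes Ckm and Acta1 were at 0 to 507 and 0.361 to 672 CPM in lean and at 0 to 84.2 and 0.909 to 77.4 CPM in obese libraries, while the milk gene Wap was at 0 in all 4 obese libraries. The part of epithelium and muscle in the results was not tested beyond the fits named below that take their scores as covariates or leave the 4 muscle-rich libraries out.

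**Figure D1:**
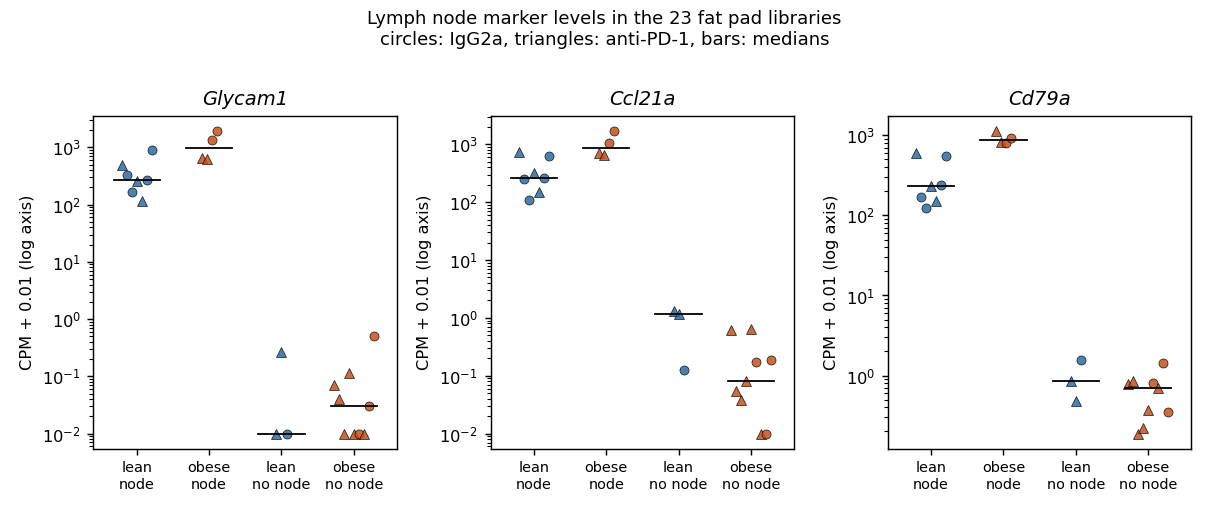
CPM plus 0.01 (log axis) of Glycam1, Ccl21a and Cd79a in each of the 23 libraries, grouped by diet and by presence of node RNA. Circles are IgG2a, triangles anti-PD-1 and bars group medians. The 11 libraries with node lie at 107 CPM or more for all these genes and the other 12 at 1.57 CPM or less.

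Among pads with node, the genes of fatty acid synthesis and of heat production in fat cells fell almost without exception in obese mice, in 18 of 18 and 14 of 15 genes, and 7 of 10 neutrophil and 6 of 12 node stroma genes rose. Of B and T cell genes 8 and 7 of 18 rose, counts that went to 0 on leaving out single libraries. Of 18658 genes tested, 1986 (10.6%) rose and 2407 (12.9%) fell in obese mice at an adjusted p under 0.05, by edgeR's quasi-likelihood test with Benjamini-Hochberg adjustment over all genes, which gives every adjusted p below unless another is named. The median change over all genes was 0.02 on the log2 scale. Every obese library lay above every lean one in 13.0% of the genes and below in 6.42%. These percentages are the background against which the members of each gene list below should be read.

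The share of calls that were rises, 45.2% of 4393, moved with the settings: it was 66.3% when counts were scaled by library totals alone (3445 rose, 1748 fell, median of all genes 0.23), 55.1% on TPM, 31.5% in the 6 IgG2a libraries (440 rose, 959 fell) and 12.5% in the 5 anti-PD-1 libraries (44 and 307). With the B cell score, the mean log2 CPM of the 18 B cell genes, as a further covariate, 189 genes (1.01%) rose and 592 (3.17%) fell, a share of 24.2%. B cell RNA is itself among the outcomes, so these fits adjust for it and do not measure the amount of node. The B cell score was 7.44 to 8.36 in obese and 5.32 to 7.78 in lean libraries. Only lean anti-PD-1 1 among the lean libraries reached the obese range. The score can therefore hardly be told apart from diet, and gains or losses of calls with it are described, not tested. With the epithelium score, which does not overlap between the diets and so cannot be told apart from them, 37 rose and 91 fell, a share of 28.9%. Leaving out 1 library at a time gave between 512 rises and 1397 falls (without obese IgG2a 3) and 2507 and 2794 (without lean anti-PD-1 1), and without the 4 muscle-rich libraries 595 rose and 1068 fell. For many calls named below that ended on leaving out 1 library, that is said beside the call or by its list's count. A call without such a remark is not thereby shown to hold.

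B cell genes were higher in the obese pads with node, and 8 of 18 rose with 0 falling, against a background of 10.6%. Their median change was 1.09 on the log2 scale. The count rests on single libraries: 0 of 18 passed without obese IgG2a 3, 3 without obese anti-PD-1 3, 4 without obese IgG2a 1, lean anti-PD-1 3 or lean anti-PD-1 5, 5 without lean IgG2a 1, 2 or 3 (each alone) and 14 without lean anti-PD-1 1. Without the 4 muscle-rich libraries 5 passed. The median stayed between 0.87 and 1.41 on leaving out any 1 library. Cd79a (ENSMUSG00000003379, chromosome 7, 24897381 to 24902197) stood at 1134, 824, 809 and 926 CPM in the obese libraries and at 123 to 600 CPM, median 233, in the lean ones. Every obese library was above every lean one, and the gene rose by 1.46 (SE 0.369, adjusted p = 0.0154). Its partner chain Cd79b rose by 1.72 (SE 0.411, adjusted p = 0.0118), and Blk, a kinase downstream of the receptor, by 1.71 (SE 0.411, adjusted p = 0.0121). The calls of Cd79a, Cd79b and Blk ended without obese IgG2a 3, at adjusted p = 0.0674, 0.0517 and 0.0594. In bulk tissue, fewer cells of a type and less RNA per cell cannot be told apart, nor a larger node from a larger share of the node in the piece taken.

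T cell genes were higher by a like amount: 7 of 18 rose, none fell, and the median was 0.92. Of these 18, 0 passed without obese IgG2a 1 or obese IgG2a 3, 1 without obese anti-PD-1 3 or obese anti-PD-1 4, 2 to 4 without lean IgG2a 1, lean IgG2a 3, lean anti-PD-1 3 or lean anti-PD-1 5, 13 without lean IgG2a 4, and 2 without the muscle-rich libraries. Cd3d, a chain of the T cell receptor complex, was at 80.0, 117, 162 and 145 CPM in obese and 12.4 to 86.9 CPM (median 41.4) in lean libraries, and rose by 1.35 (SE 0.383, adjusted p = 0.0247). The adhesion receptor Cd2 stood at 134, 113, 117 and 138 CPM in obese libraries, all above the lean range of 20.3 to 93.7 CPM, and rose by 1.10 (SE 0.312, adjusted p = 0.0246). Cd3d lost its call without obese anti-PD-1 4, obese IgG2a 1 or obese IgG2a 3 (up to 0.0900), and Cd2 without obese anti-PD-1 3, obese IgG2a 1 or obese IgG2a 3 (up to 0.108). Cd3e (0.70, SE 0.296, adjusted p = 0.104), Cd4 (0.53, adjusted p = 0.349) and Cd8a (0.67, adjusted p = 0.186) were not called, and neither were the germinal center genes, of which 0 of 7 passed with a median of 0.03. Among genes of recirculating T cells 3 of 10 rose, (1 without obese anti-PD-1 3, 0 without obese IgG2a 3, 5 without lean IgG2a 4), among them Klf2, a factor that keeps T cells recirculating (1.06, SE 0.238, adjusted p = 0.00907), and the node-homing receptor Ccr7 (1.26, SE 0.327, adjusted p = 0.0172). Klf2 lost its call without obese IgG2a 3 (adjusted p = 0.0517), and Ccr7 without obese anti-PD-1 3 or obese IgG2a 3 (up to 0.0770). With the B cell score as a covariate 0 of the 18 T cell and 0 of the 10 recirculating T cell genes were called in either direction, with medians of 0.05 and -0.03.

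Genes of regulatory T cells and of checkpoint receptors rose in 6 of 8 and 5 of 10 with medians of 1.26 and 1.23. The first count was 4 to 6 on leaving out any 1 library, and the second was 2 without obese anti-PD-1 3, obese IgG2a 1, obese IgG2a 3, lean anti-PD-1 3 or lean anti-PD-1 5. Without the 4 muscle-rich libraries they were 3 and 2. Adding the B cell score left 1 of 8 and 1 of 10 rising. Icos (ENSMUSG00000026009, chromosome 1, 60977927 to 61000320), a costimulatory receptor of follicular helper and regulatory T cells, was at 119, 64.9, 52.9 and 71.1 CPM in obese and 4.51 to 28.1 CPM (median 15.0) in lean libraries. The groups were apart, and Icos rose by 2.10 (SE 0.334, adjusted p = 0.00131) and by 1.23 with the B cell score as a covariate (adjusted p = 0.0480). In the IgG2a libraries alone the difference was 1.84 and was not called. Tnfrsf4, the costimulatory receptor OX40, stood at 40.5, 33.5, 26.9 and 23.5 CPM against 4.51 to 17.7 CPM (median 8.99) and rose by 1.41 (SE 0.262, adjusted p = 0.00334). Il2ra, the high-affinity interleukin-2 receptor chain, rose by 1.42 (SE 0.328, adjusted p = 0.0101), with the highest value, 77.9 CPM, in obese anti-PD-1 3. Capg, an actin-capping protein gene that regulatory T cells share with myeloid cells, rose by 1.31 (SE 0.218, adjusted p = 0.00180) and by 0.80 with the B cell score (adjusted p = 0.0326). Foxp3, which defines regulatory T cells, was at 32.8, 20.3, 7.96 and 13.9 CPM in obese and 1.43 to 16.1 CPM (median 9.02) in lean libraries. The groups overlapped and it was not called (0.85, SE 0.478, adjusted p = 0.219).

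Pdcd1, the receptor that the antibody blocks, was at 12.1, 6.57, 11.5 and 11.9 CPM in obese and 1.46 to 8.64 CPM (median 3.41) in lean libraries, and rose by 1.29 (SE 0.409, adjusted p = 0.0387). This call ended in 8 of the 11 fits without 1 library (adjusted p up to 0.141), and held only without lean anti-PD-1 1, lean IgG2a 4 or obese anti-PD-1 4. Its ligand gene Cd274 stood at 65.2, 43.0, 27.3 and 29.8 CPM against 22.7 to 41.8 CPM (0.25, SE 0.235, adjusted p = 0.470). The second ligand gene Pdcd1lg2 rose by 1.79 (SE 0.480, adjusted p = 0.0196), and the inhibitory receptor Ctla4 by 1.67 (SE 0.465, adjusted p = 0.0226), with 71.4 and 33.0 CPM in the obese anti-PD-1 and 10.6 and 12.3 CPM in the obese IgG2a libraries. Ctla4 lost its call without obese anti-PD-1 3, lean anti-PD-1 3 or lean anti-PD-1 5 (up to 0.0678), and Pdcd1lg2 without obese IgG2a 1 or obese IgG2a 3 (up to 0.0697). Of 15 cytotoxic and natural killer cell genes 3 rose (0 without obese anti-PD-1 3 or obese IgG2a 3, 1 without obese IgG2a 1, lean IgG2a 1, lean anti-PD-1 3 or the muscle-rich libraries), with granzyme Gzmb at 11.0, 5.17, 2.86 and 8.20 CPM against 1.06 to 2.98 CPM (1.58, SE 0.379, adjusted p = 0.0119, up to 0.0904 without obese anti-PD-1 3 or obese IgG2a 3).

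Dendritic cell genes rose in 4 of 12 (median 0.85), in 4 to 6 on leaving out any 1 library and in 2 without the muscle-rich libraries. Ccl17, a chemokine gene of dendritic cells that have moved to a node, was at 7.76, 7.59, 6.24 and 2.74 CPM in obese libraries and at 0.444 to 1.54 CPM in lean ones, apart in every library, and rose by 2.46 (SE 0.414, adjusted p = 0.00187). Batf3, needed by cross-presenting dendritic cells, rose by 1.70 (SE 0.304, adjusted p = 0.00269), from a lean range of 2.79 to 9.39 CPM to 22.0, 21.3, 19.4 and 19.3 CPM, and the actin-bundling gene Fscn1 by 1.04 (SE 0.261, adjusted p = 0.0149). The calls of Ccl17, Batf3 and Fscn1 held in every fit that left 1 library out. None of the 12 passed with the B cell score as a covariate, where the median was -0.06.

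Genes of the stroma that organises the node were higher as well. Of 12 genes of reticular and follicular stroma 6 rose and 1, Ltbr, fell, with a median of 1.40, and of 8 genes of high endothelial venules other than Glycam1, 4 rose with a median of 0.84. The first count was 5 to 9 on leaving out any 1 library, and the second was 2 without obese anti-PD-1 3 or obese IgG2a 3. Adding the B cell score left 1 of 12 and 1 of 8 rising, with medians of 0.45 and 0.62. Cxcl13 (ENSMUSG00000023078, chromosome 5, 95956951 to 95961068), the chemokine that draws B cells into follicles, was at 612, 233, 238 and 312 CPM in obese and 34.6 to 112 CPM (median 58.4) in lean libraries. The lowest obese value was above the highest lean value, and the gene rose by 2.16 (SE 0.347, adjusted p = 0.00142), by 1.98 in the IgG2a libraries and by 1.15 with the B cell score (adjusted p = 0.00519). Ccl19, a T-zone chemokine gene, stood at 125, 245, 170 and 209 CPM against 30.3 to 117 CPM (median 55.5) and rose by 1.51 (SE 0.303, adjusted p = 0.00500). Ccl21a (ENSMUSG00000094686, chromosome 4, 42772860 to 42773993) was at 695, 645, 1049 and 1690 CPM against 107 to 726 CPM (median 263), a difference of 1.36 (SE 0.461) whose adjusted p of 0.05 fell just outside the threshold. It has near-identical copies, between which the estimates may be split.

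Tnfsf11, the RANK ligand that stromal organiser cells make, was at 18.9, 9.88, 24.1 and 17.5 CPM against 0.820 to 6.13 CPM (median 3.14) and rose by 2.31 (SE 0.397, adjusted p = 0.00216). Bst1, a surface enzyme of reticular cells, rose by 1.45 (SE 0.337, adjusted p = 0.0103), and Ch25h, whose product guides B cells through its oxysterols, by 1.47 (SE 0.318, adjusted p = 0.00736). Ltbr, the lymphotoxin receptor gene, fell by 0.59 (SE 0.195, adjusted p = 0.0465), to 34.8, 51.4, 48.6 and 50.0 CPM from 48.4 to 73.5 CPM, a call that ended in 9 of 11 fits without 1 library (up to 0.131). Ltbr is known to be made by many cell types beside node stroma.

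Among high endothelial venule genes, Madcam1 (ENSMUSG00000020310, chromosome 10, 79664559 to 79668537) had the largest change. It encodes an adhesion molecule of the venules of mucosal and newborn nodes, and stood at 12.9, 8.75, 27.3 and 20.9 CPM in obese and 1.02 to 6.49 CPM (median 1.79) in lean libraries. Madcam1 rose by 2.70 (SE 0.323, adjusted p = 2.0e-04), by 2.10 with the B cell score (adjusted p = 0.00628), and stayed called in every fit that left 1 library out (adjusted p at most 0.00184). Fut7, which builds the sugar to which lymphocytes bind, was at 14.7, 15.1, 24.0 and 28.5 CPM against 1.67 to 9.89 CPM (median 2.87) and rose by 2.03 (SE 0.439, adjusted p = 0.00731). Chst4, a sulfotransferase for the same sugar, rose by 1.54 (SE 0.471, adjusted p = 0.0331), but in only 3 of the 11 fits without 1 library (up to 0.134 in the other 8). Of the lymphatic endothelium genes, 0 of 10 were called and the median was 0.02.

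Macrophages of the node sinuses had 3 of 6 tested genes rising, out of 7 listed, and a median of 1.40. The count was 2 without obese anti-PD-1 3, obese IgG2a 1, obese IgG2a 3, lean anti-PD-1 3 or lean anti-PD-1 5, 5 without lean IgG2a 3, and 0 with the B cell score. Cd5l (ENSMUSG00000015854, chromosome 3, 87357881 to 87371073), which encodes a secreted scavenger protein of tissue macrophages, was at 70.3, 18.0, 57.8 and 87.6 CPM in obese and 0.605 to 11.7 CPM (median 5.56) in lean libraries and rose by 3.40 (SE 0.580, adjusted p = 0.00213). Marco, a scavenger receptor of medullary sinus macrophages, was at 378, 154, 339 and 330 CPM against 12.1 to 102 CPM (median 70.1) and rose by 1.99 (SE 0.425, adjusted p = 0.00691). Both were apart in every library and stayed called without any 1 of the 11, but neither passed with the B cell score (2.54, adjusted p = 0.211, and 1.21, adjusted p = 0.340). Siglec1, the marker of subcapsular sinus macrophages, was not called (1.15, adjusted p = 0.0897).

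In the lymphotoxin and tumor necrosis factor family, 6 of 9 rose with a median of 1.19, ligands and receptors among them. Without obese anti-PD-1 3, obese IgG2a 1 or obese IgG2a 3 these were 3, 2 and 1, without the muscle-rich libraries 3, and with the B cell score 1. Ltb, the membrane anchor of lymphotoxin, stood at 440, 458, 652 and 620 CPM in obese and 68.5 to 385 CPM (median 165) in lean libraries and rose by 1.32 (SE 0.372, adjusted p = 0.0243), a call that ended without obese IgG2a 1 or obese IgG2a 3 (up to 0.0914). Cd40, through which T cells license B cells, rose by 1.46 (SE 0.344, adjusted p = 0.0109, and 0.0520 without obese IgG2a 3). Tnfrsf1b, a receptor of tumor necrosis factor, rose by 1.22 (SE 0.194, adjusted p = 0.00131) and by 0.69 with the B cell score (adjusted p = 0.0169). The genes of the soluble ligands, Lta (1.07, adjusted p = 0.0508) and Tnf (1.08, adjusted p = 0.140), were not called.

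Il17a, Il17f, Il22 and Ccl20 were read in every obese pad with node and were at or near 0 in the lean ones. Il17a and Il17f are known to be made by gamma-delta T cells, lymphocytes that react early at barriers and in fat. These genes belong to no list, and of them and the receptor genes described next only Cd163l1, Tcrg-C1 and Trdc come from the naming rule, the others having been chosen after their values were seen. Il17a, Il17f, Il22 and Ccl20 also passed the expression filter only through the obese libraries, where they are high. Their p-values, fold floors and fits without 1 library describe that contrast and are no independent support for it. Il17a (ENSMUSG00000025929, chromosome 1, 20730905 to 20734496), the cytokine gene that names this response, was at 6.89, 2.79, 3.46 and 2.36 CPM in the 4 obese libraries with node and at 0 in the 7 lean ones and in all 12 libraries without node. Against a floor of 3 counts per library (0.0492 CPM) it was at least 78.8-fold higher (adjusted p = 4.4e-04). It passed in every fit that left 1 library out (adjusted p at most 0.00298) and with the B cell score (adjusted p = 0.00667). Its neighbour and relative Il17f (chromosome 1, 20777146 to 20790617) was at 8.69, 6.04, 1.08 and 1.33 CPM and at no more than 0.0918 CPM in lean libraries (adjusted p = 2.7e-04). Il22, often made by the same cells, was at 2.74, 1.80, 0.861 and 0.545 CPM and at 0 in every lean library, at least 30.2-fold higher (adjusted p = 0.00294). Ccl20, a chemokine that draws such cells, was at 5.62, 1.29, 11.6 and 4.15 CPM and at 0 in every lean library with node, at least 115-fold higher (adjusted p = 5.7e-04).

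The receptor genes Cd163l1, Trdc and Tcrg-C1 were read in lean pads with node and were higher in obese ones. Cd163l1 (ENSMUSG00000025461, chromosome 7, 140218267 to 140231145), a scavenger receptor of interleukin-17-producing gamma-delta T cells, was at 52.0, 24.5, 139 and 235 CPM in obese and 0.437 to 6.50 CPM (median 2.26) in lean libraries, and rose by 4.93 (SE 0.641, adjusted p = 4.1e-04). Trdc, the constant region of the delta chain, was at 33.2, 16.4, 59.2 and 128 CPM against 1.39 to 10.5 CPM (median 4.81) and rose by 3.25 (SE 0.477, adjusted p = 7.6e-04). Tcrg-C1, a gamma chain constant region, was at 19.8, 9.87, 42.6 and 63.8 CPM against 0.609 to 3.79 CPM (median 1.77) and rose by 3.87 (SE 0.493, adjusted p = 3.0e-04). Its copies resemble it and may share its reads. In Cd163l1, Trdc and Tcrg-C1 the obese IgG2a libraries stood above the obese anti-PD-1 libraries, while for Il17f the order was the other way round, with 2 libraries each and no test. Tcrg-V6, a variable segment of innate-like gamma-delta T cells, rose by 6.41 (SE 1.22, adjusted p = 0.00366), from at most 0.281 CPM to 1.05, 0.681, 2.22 and 6.06 CPM. Il23r, the receptor that sustains these cells, rose by 3.41 (SE 0.566, adjusted p = 0.00171). With the B cell score as a covariate Cd163l1 (3.75, adjusted p = 0.0384) and Tcrg-C1 (3.50, adjusted p = 0.0371) passed and Trdc did not (2.24, adjusted p = 0.0960). The receptor gene Ccr6 was not called (0.99, adjusted p = 0.227).

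**Figure D2:**
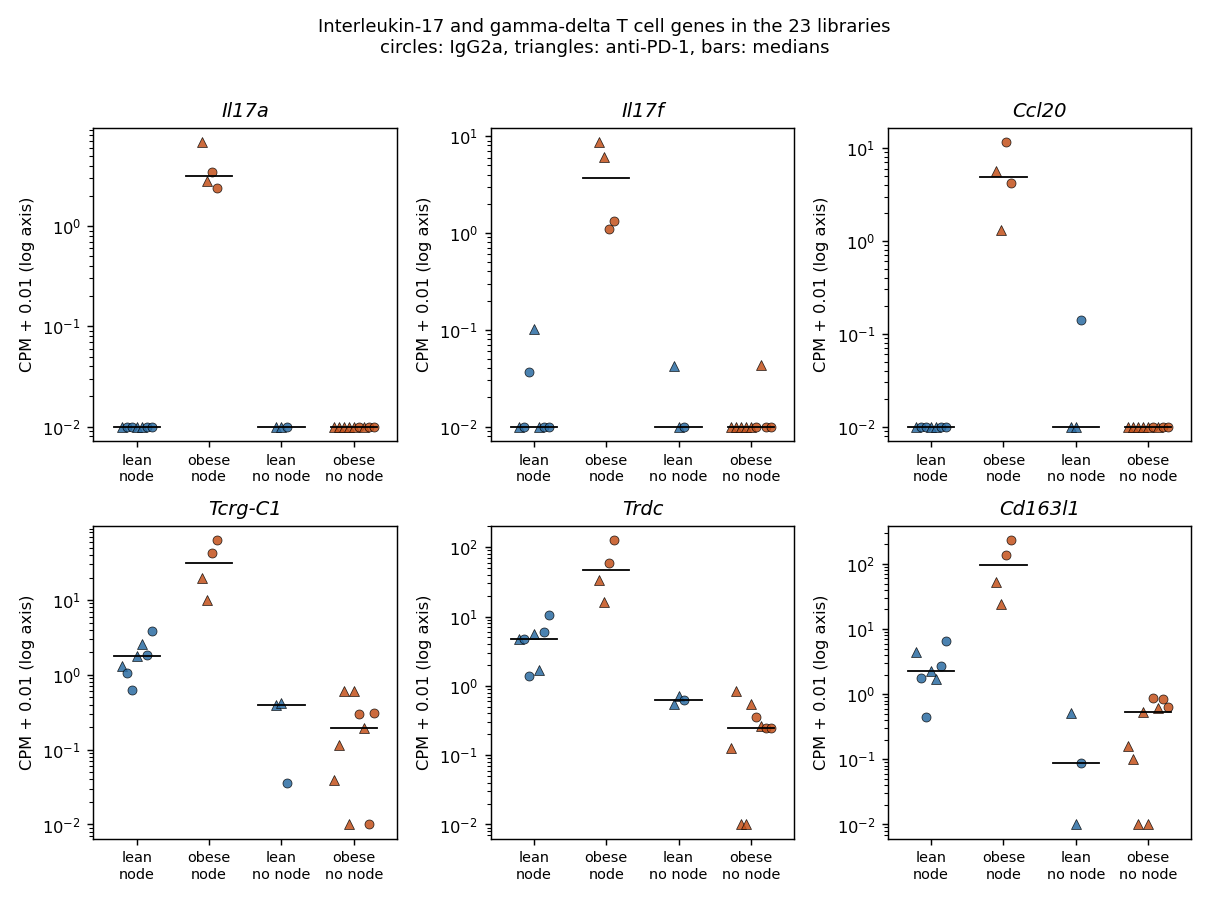
CPM plus 0.01 (log axis) of interleukin-17 and gamma-delta T cell genes in each of the 23 libraries, grouped by diet and by presence of node RNA, with circles for IgG2a, triangles for anti-PD-1 and bars for medians. Il17a reads 2.36 to 6.89 CPM in the 4 obese libraries with node and 0 in all others, and Cd163l1 in lean pads with node (0.437 to 6.50 CPM) lies under obese pads with node (24.5 to 235 CPM). It reads at most 0.875 CPM without node.

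Neutrophil genes rose in 7 of 10 tested (12 listed), with a median of 2.48. S100a9 (ENSMUSG00000056071, chromosome 3, 90692632 to 90695721), which makes up calprotectin with S100a8, was at 9.31, 23.5, 33.6 and 57.8 CPM in obese and 0.275 to 2.28 CPM (median 0.425) in lean libraries and rose by 5.06 (SE 0.450, adjusted p = 2.5e-05). S100a8 also rose by 5.06 (SE 0.665, adjusted p = 3.7e-04), the granule gene Retnlg by 5.77 (SE 0.817, adjusted p = 6.0e-04), and Cxcr2, the receptor that guides neutrophils, by 2.52 (SE 0.548, adjusted p = 0.00756). Retnlg averaged 0.0635 CPM in lean libraries and passed the expression filter only through the obese ones. Its p-value and fits without 1 library describe that contrast and are no independent support for it. The cytokine gene Il1b rose by 2.45 (SE 0.466, adjusted p = 0.00373) and the neutrophil attractant Cxcl1, added after its values were seen, by 2.83 (SE 0.436, adjusted p = 0.00107). Saa3, an acute-phase gene of fat and macrophages, was at 7.83, 4.12, 74.0 and 10.4 CPM against 0.0656 to 2.59 CPM (median 0.172) and rose by 4.65 (SE 0.974, adjusted p = 0.00674). The calls of the 7 genes named here held in every fit that left 1 library out, while the list's count was 6 without obese anti-PD-1 3 and 5 without obese IgG2a 3. With the B cell score 4 neutrophil genes still passed, S100a9 by 5.85 (adjusted p = 7.5e-05).

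Monocyte chemokine and receptor genes rose in 6 of 10 (median 1.61), and 5 of the 10 passed with the B cell score (median 1.68). Ccr2, the receptor with which monocytes leave the blood, was at 80.3, 37.9, 75.7 and 92.2 CPM in obese and 7.90 to 20.0 CPM (median 16.2) in lean libraries and rose by 2.09 (SE 0.266, adjusted p = 3.0e-04). Its ligand genes Ccl2 and Ccl7 rose by 2.10 (SE 0.414, adjusted p = 0.00450) and 2.34 (SE 0.329, adjusted p = 5.7e-04). Of 15 macrophage genes 8 rose with a median of 0.80 (4 without obese IgG2a 3, 3 without the muscle-rich libraries, 0 with the B cell score), led by Lyz2, the lysozyme of myeloid cells (1.66, SE 0.345, adjusted p = 0.00598, at 1364, 840, 2026 and 1937 CPM against 206 to 777 CPM). Lipid-associated macrophage genes went both ways, with 3 rising and 3 falling of 14 tested. These counts were 2 and 5 without obese anti-PD-1 4, and 4 and 3 without lean anti-PD-1 1. Trem2, the lipid sensor that defines these cells, rose by 2.73 (SE 0.456, adjusted p = 0.00181) to 2.78, 10.2, 10.8 and 8.92 CPM from at most 1.85 CPM, while Plin2, Fabp5 and Ctsd, which fat cells also make, fell by 2.03, 1.71 and 1.26 (adjusted p = 8.0e-05, 0.00155 and 0.00269).

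The mast cell protease genes Mcpt4, Cma1, Tpsb2 and Cpa3, which belong to no list and were chosen after their values were seen, rose. Mcpt4, a chymase of connective tissue mast cells, was at 81.7, 33.8, 92.0 and 68.7 CPM in obese and 11.5 to 33.6 CPM (median 19.3) in lean libraries and rose by 1.56 (SE 0.263, adjusted p = 0.00192). Cma1 rose by 1.46 (SE 0.259, adjusted p = 0.00260) and the tryptase Tpsb2 by 1.45 (SE 0.293, adjusted p = 0.00522), both in every fit without 1 library. Cpa3, at 18.7, 4.63, 12.9 and 10.5 CPM against 1.16 to 5.10 CPM, rose by 1.46 (SE 0.382, adjusted p = 0.0174), a call that ended without obese anti-PD-1 3, obese IgG2a 1 or obese IgG2a 3 (up to 0.0933). None of Mcpt4, Cma1, Tpsb2 and Cpa3 passed with the B cell score (adjusted p = 0.0819, 0.0796, 0.189 and 0.346). Of 10 class II antigen presentation genes 9 rose (median 1.15), among them H2-DMb1 (1.07, SE 0.195, adjusted p = 0.00290) and H2-Aa, whose 2313, 1673, 1673 and 1746 CPM stood above the lean range of 386 to 1365 CPM (1.16, SE 0.318, adjusted p = 0.0213). H2-Aa lost its call without obese anti-PD-1 3, obese IgG2a 1 or obese IgG2a 3 (up to 0.0826), and with the B cell score 0 of the 10 passed. Of the class II genes 1 passed without obese IgG2a 1 or obese IgG2a 3, 2 without obese anti-PD-1 3 and 5 without lean IgG2a 1 or lean anti-PD-1 3. Complement genes rose in 6 of 12 (median 0.41), led by C4b (1.30, SE 0.234, adjusted p = 0.00272), and interferon-induced genes in 5 of 18 with 1, Cxcl9, falling (median 0.52). Without obese IgG2a 3 or without the muscle-rich libraries 0 of the interferon-induced genes rose, and 3 did without obese anti-PD-1 3, obese IgG2a 1 or lean anti-PD-1 3. Of the complement genes 1 of 12 rose with the B cell score, and of the interferon-induced genes 0 of 18.

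Of the 37 gene lists, the one with the largest median change was that of fatty acid synthesis, the making of fat from sugar. All 18 genes of the list fell, also without any 1 library, against a background of 12.9%, with a median of -4.39 and every obese library below every lean one. Acly (ENSMUSG00000020917, chromosome 11, 100476353 to 100528000), which supplies acetyl-CoA to the pathway, was at 153, 117, 121 and 140 CPM in obese and 2320 to 4306 CPM (median 3478) in lean libraries and fell by 4.88 (SE 0.302, adjusted p = 2.5e-06). Fasn (ENSMUSG00000025153, chromosome 11, 120805846 to 120824547), the fatty acid synthase, stood at 209, 117, 240 and 108 CPM against 10360 to 20857 CPM (median 15850) and fell by 6.75 (SE 0.436, adjusted p = 2.6e-06). The elongase Elovl6 fell by 7.44 (SE 0.404, adjusted p = 1.9e-06), to 19.4, 13.6, 15.7 and 9.94 CPM, and the fructose carrier Slc2a5 by 9.87 (SE 0.545, adjusted p = 1.9e-06), to at most 0.255 CPM from 55.4 to 116 CPM. Slc2a5 averaged 0.107 CPM in obese libraries and passed the expression filter through the lean ones, so its p-value describes that contrast. The smallest change of the list was that of Elovl5, which lengthens dietary polyunsaturated fatty acids and fell by 1.30 (adjusted p = 1.7e-04). With the B cell score all 18 still fell (median -3.89), as did 18 in the IgG2a and 17 in the anti-PD-1 libraries. In pads without node the median was -3.68, and only Scd1 (-2.59, adjusted p = 0.0186) and Mlxipl (-2.07, adjusted p = 0.0182) fell further with node than without by the test of the difference, both calls ending without lean anti-PD-1 4 (0.0624 and 0.0531).

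The promoters of these genes are shown because the members moved together, and because the sterol response and CCAAT boxes are the classical elements of lipid synthesis genes. RefSeq (GRCm38.p6) gave the 250 bases before and 50 after the start for 15 of the 18 fatty acid genes and for 10 of the 17 cholesterol genes. Capitals mark the letters CCAAT on either strand (ATTGG on the strand printed), overlapping where 2 boxes share bases, and, in Hmgcs1, the sterol regulatory element TCACNCCAC. They are printed for Fasn (chr11:120824498-120824797, minus strand), Acly (chr11:100527951-100528250, minus strand) and, from cholesterol synthesis, Hmgcs1 (chr13:119690101-119690400, plus strand), in the direction of transcription.
Fasn: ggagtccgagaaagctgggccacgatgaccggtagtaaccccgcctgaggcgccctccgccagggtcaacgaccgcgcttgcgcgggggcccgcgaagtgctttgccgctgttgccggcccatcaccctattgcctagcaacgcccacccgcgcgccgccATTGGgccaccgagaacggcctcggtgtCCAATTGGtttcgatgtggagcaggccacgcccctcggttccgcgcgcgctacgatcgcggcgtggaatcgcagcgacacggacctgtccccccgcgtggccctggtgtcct
Acly: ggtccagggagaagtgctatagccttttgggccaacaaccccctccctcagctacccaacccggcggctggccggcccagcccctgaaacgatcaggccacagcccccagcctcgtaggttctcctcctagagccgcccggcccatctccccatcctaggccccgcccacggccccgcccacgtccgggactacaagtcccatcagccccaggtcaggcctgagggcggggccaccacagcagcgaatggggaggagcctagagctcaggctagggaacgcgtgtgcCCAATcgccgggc
Hmgcs1: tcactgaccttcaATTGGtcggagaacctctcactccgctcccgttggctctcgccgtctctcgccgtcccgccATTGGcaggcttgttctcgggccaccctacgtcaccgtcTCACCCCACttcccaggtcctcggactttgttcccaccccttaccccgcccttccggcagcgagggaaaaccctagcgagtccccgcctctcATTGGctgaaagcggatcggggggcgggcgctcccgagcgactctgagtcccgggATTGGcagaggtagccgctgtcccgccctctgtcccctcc

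The letters CCAAT stood in promoters of 10 of 15 fatty acid and 10 of 10 cholesterol genes. They stood in promoters of 41.1% of the 27025 genes with RefSeq promoters of the same length, a gene counting if any of its promoters matched. TCACNCCAC stood in 1 of 15 (Mlxipl) and 1 of 10 (Hmgcs1) against 1.44% of all. The E box CACGTG stood in 3 of 15 and 3 of 10 against 8.09%, and the nuclear receptor half-site AGGTCA in 3 of 15 and 3 of 10 against 18.1%. The 4 patterns were read on both strands and are described, not tested.

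Cholesterol synthesis fell with fatty acid synthesis, in 15 of 17 genes with a median of -1.55, and 11 passed with the B cell score. Insig1, a sterol-regulated brake on the pathway, was at 36.9, 53.1, 50.3 and 42.4 CPM against 434 to 780 CPM (median 577) and fell by 3.90 (SE 0.248, adjusted p = 2.6e-06). Lss, which closes the sterol rings, fell by 2.47 (SE 0.234, adjusted p = 4.0e-05), and Hmgcs1, an early step of the pathway, by 1.06 (SE 0.244, adjusted p = 0.00984). Genes of heat-producing fat cells fell in 14 of 15, with a median of -3.85. Ucp1 (ENSMUSG00000031710, chromosome 8, 83290352 to 83298452), the uncoupling protein that releases heat, was at 0.218, 0.186, 0 and 0 CPM in obese and 5.70 to 533 CPM (median 138) in lean libraries and fell by 10.96 in the fit (SE 1.71, adjusted p = 0.00220). Cidea, a lipid droplet protein of these cells, fell by 6.70 (SE 0.528, adjusted p = 1.0e-05), to at most 4.67 from at least 108 CPM. Skeletal muscle also makes some of these genes, and without the 4 muscle-rich libraries 13 of the 15 fell. Respiratory chain genes fell in 21 of 22 (11 without the muscle-rich libraries) with a median of -1.17, for example Uqcrc2 of complex III (-1.36, SE 0.154, adjusted p = 1.4e-04).

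Genes that define fat cells fell in 11 of 16 (median -1.36), against 5 of 16 with the B cell score or without the muscle-rich libraries, and 7 without obese IgG2a 3. The insulin-regulated glucose carrier Slc2a4 fell by 2.74 (SE 0.281, adjusted p = 6.6e-05), to 45.5, 79.8, 92.3 and 51.1 CPM from 287 to 462 CPM (median 379), and the lipase Pnpla2 by 1.67 (SE 0.270, adjusted p = 0.00143). Adiponectin, Adipoq, was at 392, 1296, 1213 and 742 CPM in obese and 1107 to 2741 CPM (median 1495) in lean libraries, which overlapped, and was not called (-1.10, SE 0.392, adjusted p = 0.0607). Genes of expanding fat went the other way, with 7 of 10 rising, 2 falling and a median of 1.96. Lep, the satiety hormone leptin, was at 365, 963, 443 and 210 CPM against 74.3 to 233 CPM (median 97.8) and rose by 1.81 (SE 0.454, adjusted p = 0.0147). Sfrp5, a secreted Wnt inhibitor of enlarging fat cells, stood at 80.7, 341, 114 and 57.6 CPM against 0.962 to 8.01 CPM (median 3.43) and rose by 5.04 (SE 0.654, adjusted p = 4.0e-04), and Mest, an imprinted marker of fat cell enlargement, by 4.54 (SE 0.661, adjusted p = 8.5e-04). The gene of a secreted cartilage protein, Crtac1, rose by 3.57 (SE 0.574, adjusted p = 0.00141). Vldlr, a receptor for fat-carrying particles, and Fam13a, a gene tied to fat distribution, were the 2 that fell, by 1.35 (adjusted p = 0.00289) and 1.37 (adjusted p = 0.00444). Other steep falls named by the rule were Hephl1, a copper oxidase (-8.55, adjusted p = 2.5e-05), Aspg, an asparaginase (-7.55, adjusted p = 2.1e-05), and Mmd2 (-8.80, adjusted p = 4.3e-04), all at or under 0.774 CPM in every obese library. Hephl1 and Mmd2 averaged 0.0466 and 0.0503 CPM in obese libraries and, like Ucp1, passed the expression filter through the lean ones. The p-values of Hephl1, Mmd2 and Ucp1 describe that contrast.

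**Figure D3:**
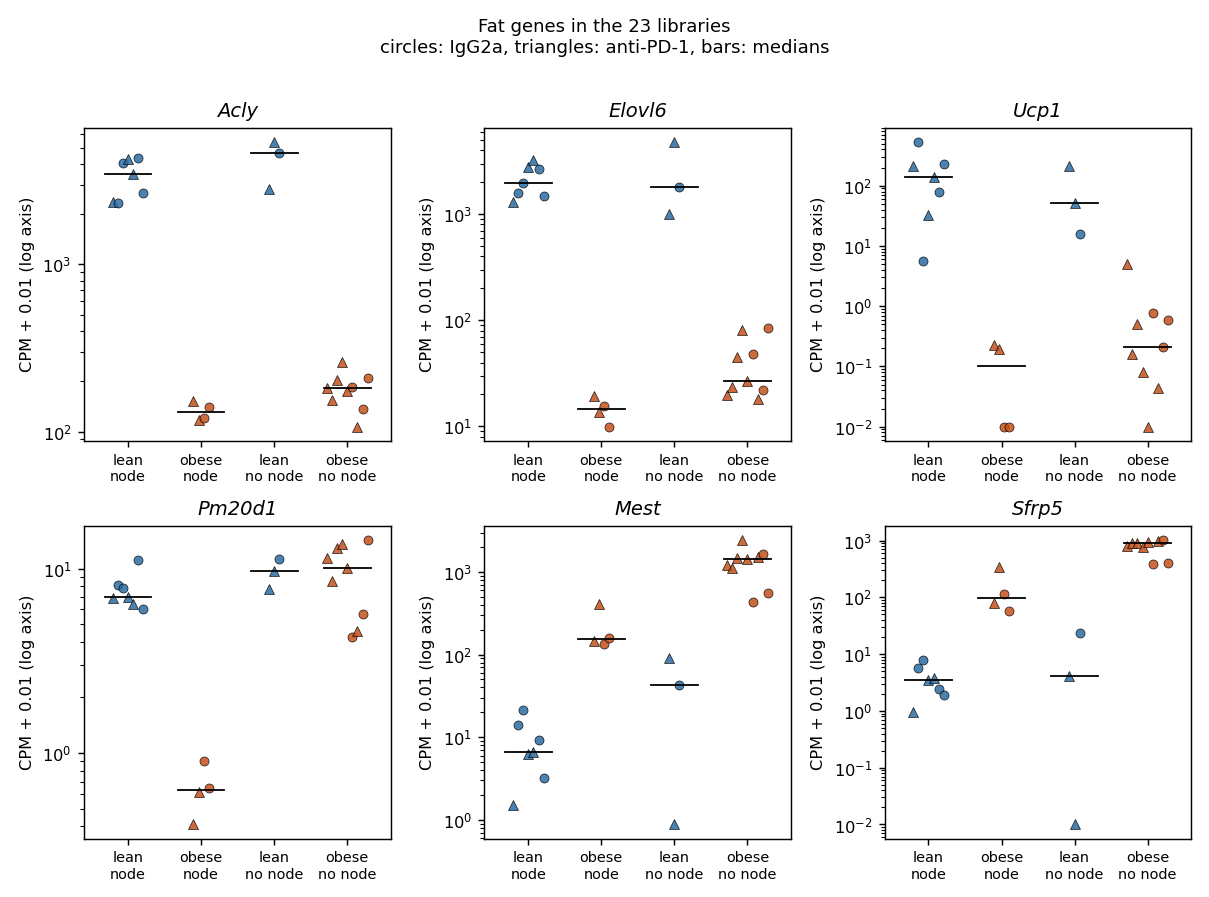
CPM plus 0.01 (log axis) of fat genes in each of the 23 libraries, grouped by diet and by presence of node RNA, with circles for IgG2a, triangles for anti-PD-1 and bars for medians. Acly and Elovl6 are low in all obese libraries with or without node, while Pm20d1 is low in obese libraries with node only (0.400 to 0.893 CPM against at least 4.23 CPM elsewhere).

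Matrix, vessel and epithelial genes were lower in the obese pads with node. Of 18 matrix genes 10 fell and 1, Thbs1, rose (median -0.85), and 1 fell with the B cell score. Of these genes 4 fell without obese IgG2a 3 and 5 without the muscle-rich libraries, and 0 rose without obese anti-PD-1 3, obese anti-PD-1 4, obese IgG2a 1, lean anti-PD-1 3 or lean IgG2a 3. Col3a1 (ENSMUSG00000026043, chromosome 1, 45311538 to 45349706), a fibrillar collagen, was at 130, 139, 159 and 77.0 CPM in obese and 229 to 531 CPM (median 477) in lean libraries and fell by 1.99 (SE 0.292, adjusted p = 7.6e-04). Of 12 blood endothelium genes 6 fell, such as the growth factor receptor Kdr (-1.64, SE 0.264, adjusted p = 0.00142), and Plvap, a diaphragm protein of leaky vessels, rose (0.90, SE 0.228, adjusted p = 0.0153, and up to 0.0931 without obese IgG2a 1 or obese IgG2a 3). Of 15 mammary epithelium genes tested 14 fell (median -1.46; 9 without obese IgG2a 3 and 8 without the muscle-rich libraries). Examples are the luminal keratin Krt19 (-1.52, SE 0.212, adjusted p = 5.5e-04) and the estrogen receptor Esr1 (-1.78, SE 0.303, adjusted p = 0.00204). Of the epithelium genes 3 and of the endothelium genes 1 fell with the B cell score. With the epithelium score as a covariate, which does not overlap between the diets, the median of endothelium was 0.07. Proliferation genes rose in 6 of 18 (median 1.17), among them Birc5 of the dividing spindle (1.80, SE 0.439, adjusted p = 0.0127, and 0.0690 without obese IgG2a 3), and 0 of 18 passed with the B cell score. Their count was 0 without obese IgG2a 3, 3 without any 1 of obese anti-PD-1 3, obese IgG2a 1, lean IgG2a 1 to 3, lean anti-PD-1 3 and lean anti-PD-1 5, 18 without lean anti-PD-1 1 or lean IgG2a 4, and 2 without the muscle-rich libraries. Mki67 was not called (1.08, adjusted p = 0.128). Of 4 tumor-associated genes tested, out of 8 listed, 1 rose (Cdkn2a, 1.73, adjusted p = 0.0127, and 0.0553 without obese IgG2a 3). All 8 listed genes, tested or not, summed to 10.6 to 15.1 CPM in obese and 2.76 to 7.49 CPM in lean libraries.

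**Figure D4:**
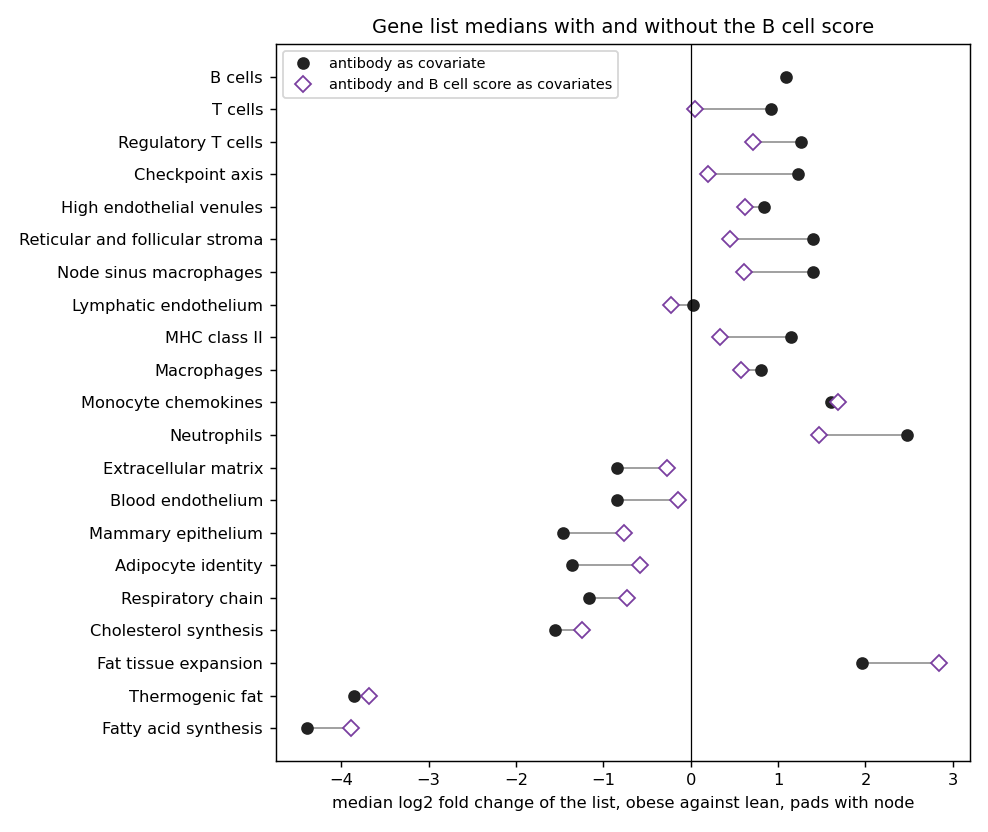
Median log2 fold change (obese against lean, pads with node, x axis) of each gene list, with antibody as covariate (filled circles) and with antibody and the B cell score as covariates (open diamonds). B cells have no diamond, because the score is their own mean. The median of T cell genes goes from 0.92 to 0.05, while those of fatty acid synthesis (-4.39 to -3.89), thermogenic fat and fat expansion keep their side.

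Next, obesity effects in pads with and without node were compared gene by gene over all 23 libraries, as an interaction of diet and node. The effect was higher with node for 965 of 21321 genes (4.53%) and lower for 967 (4.54%), 9.06% in all. Within the same fit 9.70% of genes rose and 10.7% fell in obese pads without node. Just 3 lean libraries had no node, and leaving out 1 library gave 184 higher and 426 lower without lean anti-PD-1 4, and 2442 calls in all without lean IgG2a 5. The split was 479 higher and 3711 lower on TPM and 542 and 1305 with library totals, and 498 and 1278 without a filter.

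Psmb8, a subunit of the immunoproteasome, which cuts peptides for class I presentation, went in opposite directions in the 2 sets. It rose by 0.89 with node (adjusted p = 0.00924, a call that ended without obese IgG2a 1 or obese IgG2a 3, up to 0.0540) and fell by 1.10 without (SE 0.208, adjusted p = 8.2e-04). Without node it was at 81.8 to 142 CPM in lean and 53.6 to 98.4 CPM in obese libraries, and with node at 132 to 271 and at 312, 339, 460 and 435 CPM. The difference of 2.06 passed (SE 0.289, adjusted p = 8.1e-04) and held without any 1 library. In the class I list 5 of 10 and in the class II list 5 of 10 genes had a higher obesity effect with node, and 3 of 18 interferon-induced genes, with median differences of 1.07, 1.49 and 1.18. Irf4, a factor of lymphocyte activation that fat cells use in fasting, was not called with node (0.31, adjusted p = 0.331) and fell by 2.51 without (SE 0.261, adjusted p = 7.0e-07), a difference of 2.89 (SE 0.374, adjusted p = 6.0e-04).

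Node and immune cell lists were unlike in how many of their genes differed between the sets. Over all genes the effect was higher with node in 4.53% and lower in 4.54%. It was higher for 4 of 12 stroma, 6 of 15 macrophage, 2 of 18 B cell and 2 of 18 T cell genes. None was higher among 8 high endothelial venule, 8 regulatory T cell, 7 sinus macrophage and 12 neutrophil genes. The effect was lower with node for 2 of 12 dendritic cell and 1 of 15 macrophage genes. Cxcl13 differed by 3.09 (SE 0.733, adjusted p = 0.0133), a call that ended without lean anti-PD-1 2 or lean IgG2a 5 (up to 0.0870), and without node it reached at most 1.00 CPM. Trdc differed by 4.82 (SE 1.02, adjusted p = 0.00744), which held in every fit without 1 library, and Cd163l1 by 4.47 (SE 1.31, adjusted p = 0.0374), which was lost in 10 of the 23 (up to 0.673). Without node Trdc was at most 0.829 and Cd163l1 at most 0.875 CPM. Il17a was at 0 in all 12 libraries without node, so no difference of effects can be estimated for it. The mast cell genes Mcpt4 (2.63, SE 0.508, adjusted p = 0.00511), Tpsb2 (2.82, SE 0.447, adjusted p = 0.00276) and Cpa3 (3.30, SE 0.691, adjusted p = 0.00680) differed with calls that held without any 1 library. Tpsb2 fell without node, from 6.11 to 7.68 CPM in lean to 1.17 to 6.36 CPM in obese libraries (-1.31, SE 0.322, adjusted p = 0.00640).

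Collagen genes went the opposite way, with 0 of 18 matrix genes higher and 9 lower with node, a median difference of -1.79. Col6a3, a collagen of fat cell surroundings, fell by 1.37 with node (adjusted p = 0.0154, up to 0.0585 without obese anti-PD-1 3 or obese IgG2a 3) and rose by 1.43 without (SE 0.470, adjusted p = 0.0349), where it was at 65.4 to 191 CPM in lean and 141 to 804 CPM in obese libraries. The difference was -2.73 (SE 0.635, adjusted p = 0.0119). Col4a1 of basement membranes differed by -2.11 (SE 0.449, adjusted p = 0.00735) and Vldlr by -2.44 (SE 0.565, adjusted p = 0.0114), and the differences of Col6a3, Col4a1 and Vldlr held without any 1 library. Pm20d1 (ENSMUSG00000042251, chromosome 1, 131797381 to 131821473), whose secreted enzyme makes N-acyl amino acids, was at 0.400, 0.604, 0.893 and 0.636 CPM in obese and 5.99 to 11.1 CPM in lean libraries with node. Without node it was at 4.23 to 14.3 CPM in obese and 7.74 to 11.2 CPM in lean libraries, and the difference was -3.46 (adjusted p = 0.00306). Oxtr, the oxytocin receptor, differed by -4.48 (SE 0.920, adjusted p = 0.00680) and Hipk2, a nuclear kinase, by -3.75 (SE 0.817, adjusted p = 0.00894), both in every fit without 1 library. Dapl1, a gene of naive T cells and epithelium, differed by 7.10 (SE 1.20, adjusted p = 0.00339), with 3.56 to 18.4 CPM in libraries with node and at most 2.14 CPM without.

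**Figure D5:**
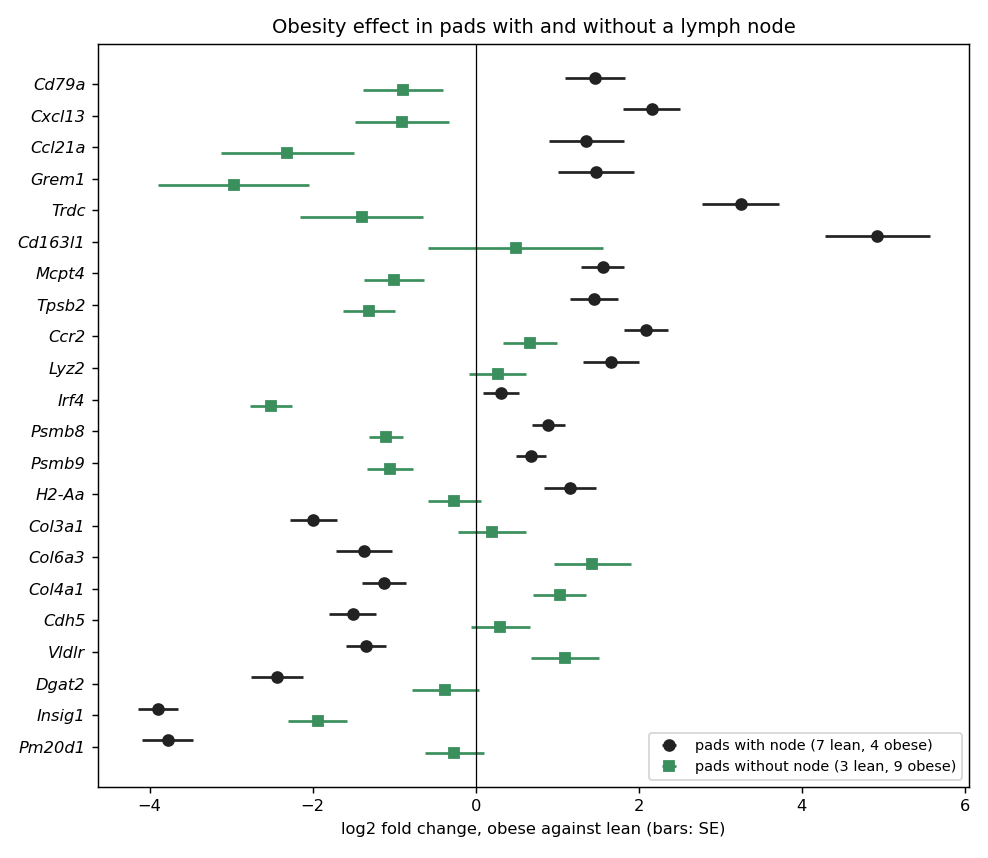
Log2 fold change of obese against lean (x axis) for single genes in pads with node (black circles, 7 lean and 4 obese) and without (green squares, 3 lean and 9 obese), with bars of 1 SE. Cd79a, Cxcl13 and Psmb8 lie above 0 with node and below 0 without, and Col6a3, Col4a1 and Vldlr the other way round. Cd79a and Cxcl13 are low in all pads without node (Cd79a at most 1.57 CPM), and the median change of the B cell list there is 0.35.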

How the data were processed

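RNA of 23 tumor-adjacent mammary fat pads was sequenced as poly(A)-enriched, non-directional libraries, 1 per mouse, so reads of overlapping or antisense genes cannot be told apart. Per the labels, samples had an RNA integrity number above 5. The deposited files give estimated counts, not normalized, and TPM for each of 115088 transcripts, per the file headers. The submitters' processing notes name edgeR, limma and GRCm38 without versions, and which program made the estimates is not stated there.

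Of the transcripts, 114200 matched GENCODE M21, and the 888 others held at most 0.208% of any library. Estimated counts were summed to 47311 genes and rounded. Totals were 49371543 to 77280024 per library, and depth bears on counting error and on which genes reach the minimum count. No 2 libraries were identical. Genes were kept by filterByExpr (minimum count 10, by diet), scaled by TMM (factors 1.04 to 1.19 in obese and 0.858 to 1.04 in lean libraries with node) and tested with edgeR 4.0.16 in R 4.3.3 by the quasi-likelihood test, two-sided, with diet and antibody as terms and Benjamini-Hochberg adjustment. edgeR estimated a common biological coefficient of variation of 0.513. Each SE given was derived from the test, as the absolute log2 fold change divided by the square root of the F statistic. For genes at or near 0 in a group it is therefore no measure of spread. A second fit of all 23 libraries had 1 mean per diet and node status, with antibody. List scores average the log2 CPM (prior count 2) of the members.

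Alternatives were DESeq2 (1.42.0) size factors or test, voom (limma 3.58.1), no filter or 1 CPM in 4 libraries, log2(TPM + 1) with limma-trend, no antibody term, each antibody alone, scores as covariates, and each library left out. Library totals, and fits without the 4 muscle-rich libraries or without obese IgG2a 5, whose liver genes were high, were added after the data were seen. The fits were tested on simulated data.

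The libraries, the 37 lists (476 genes) and the rules were chosen with earlier results of these data known. The rule names, in each fit, the 8 genes called with the steepest rise and the 8 with the steepest fall among those averaging 4 CPM or more, the 3 members of smallest p of each list, and Glycam1, Ccl21a, Cd79a, Cd3e, Ccl19, Cxcl13, Adipoq, Lep, Acly, Ucp1, Pdcd1 and Cd274. Other genes named are further list members or were chosen after their values were seen. Glycam1 entered no list count. Some results that the rule or the planned tests call for are not reported here.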

Additional observations from a re-analysis of the deposited data

Results flagged for a closer look

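In 14 of 204 groups of libraries of 1 diet for a gene, 1 library stood far from the others. The 204 include groups with all values equal, such as lean Il17a at 0, in which no library can stand apart. The chance level of the criterion, about 5%, assumes normally distributed values, which CPM were not shown to be. Among the obese libraries with node, obese anti-PD-1 3 was apart for Tigit (16.4 CPM), Pnpla2 (687, the lowest) and Elovl3 (0.218, the others at 0), obese anti-PD-1 4 for Pdcd1 (6.57, the lowest) and Mest (414), and obese IgG2a 1 for Saa3 (74.0). Among the lean ones, lean IgG2a 4 was apart for Madcam1 (6.49) and Tcrg-V6 (0.281), lean IgG2a 3 for Pm20d1 (11.1), lean IgG2a 2 for Saa3 (2.59), lean IgG2a 1 for Ucp1 (533), lean anti-PD-1 1 for Lum (29.6, the lowest), lean anti-PD-1 3 for Il17f (0.0918) and lean anti-PD-1 5 for Mmd2 (73.4). The Saa3 call survived the loss of obese IgG2a 1, while its difference between sets did not (adjusted p up to 0.118).

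The obesity effect differed between pads with and without node, by the test of the interaction, for these genes. On the log2 scale it was higher with node for the node and lymphocyte genes Ccl21a (3.84), Cxcl13 (3.09), Grem1 (4.36), Cd79a (2.43), Trbc2 (2.66), Dapl1 (7.10) and Irf4 (2.89). It was higher for the interleukin-17 and gamma-delta T cell genes Il17f (8.57), Ccl20 (15.68), Trdc (4.82), Tcrg-C1 (4.59) and Cd163l1 (4.47), and for the mast cell genes Mcpt4 (2.63), Cma1 (2.59), Tpsb2 (2.82) and Cpa3 (3.30). The values of Il17f, Ccl20 and Dsc3 (12.24) are fitted against groups at or near 0 and are no measure of size. Without node Ccl21a and Cd79a were also at most 1.29 and 1.57 CPM. Trdc, Tcrg-C1 and Cd163l1 were at most 0.829, 0.604 and 0.875 CPM there, so the differences of these genes too are set against low values. Myeloid and antigen presentation genes with a higher effect were Ccr2 (1.48), Lyz2 (1.46), Psmb8 (2.06), Psmb9 (1.81) and H2-DMa (1.65), and further ones were Saa3 (5.36) and Coch (4.94). Among these genes with a higher effect, some calls were fragile. Of 32 alternative fits, the call was lost in 20 for Lyz2, 16 for Trbc2, 14 for Ccr2 and 13 for Cd163l1, and in 0 for Psmb8.

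The effect was lower with node for the matrix genes Col3a1 (-2.12), Col6a3 (-2.73) and Col4a1 (-2.11), the endothelial genes Cdh5 (-1.73) and Erg (-5.77), and the lipid and fat genes Dgat2 (-2.08), Insig1 (-1.96), Vldlr (-2.44), Kcnk3 (-2.05), Pm20d1 (-3.46) and Oxtr (-4.48). Others were Hephl1 (-4.55), Cacna1e (-5.19), Itgad (-4.70), Hipk2 (-3.75) and Fcrl1 (-3.72). Of these, the calls of Irf4, Psmb8, Trdc, Mcpt4, Tpsb2, Cpa3, Col6a3, Col4a1, Vldlr, Dsc3, Dapl1, Cacna1e, Oxtr, Hipk2 and Pm20d1 held in every fit without 1 library.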

How the results depend on the processing

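Within pads with node, 4393 genes were called. The count was 1399 with only IgG2a libraries, 351 with only anti-PD-1 libraries, 781 with the B cell score and 128 with the mammary epithelium score as covariate, 1663 without the 4 muscle-rich libraries, and 1909 to 5301 with each library left out in turn. For the difference between sets, 1932 genes were called, 3299 with the DESeq2 Wald test, 3020 with voom and 4190 on log2(TPM + 1), and 610 to 2442 with each library left out. The cause of these shifts was not tested beyond the fewer samples or added terms themselves. Directions turned for uncalled differences: with the B cell score for Cd3e (-0.11), Cd4 (-0.57), Cd8a (-0.14), Foxp3 (-0.31) and Cd274 (-0.02), and with the epithelium score for Ccl21a (-0.19), Cd3e (-0.23), Cd4 (-1.08), Cd8a (-0.17), Foxp3 (-0.38), Cd274 (-0.08) and Adipoq (0.44). The Blood endothelium (0.07) and Mammary epithelium (0.03) list medians turned with that score too, the latter because the score is its own mean, and Cd274 (-0.35) in the IgG2a libraries. On TPM the differences of Hephl1 (0.11) and Fcrl1 (1.02) turned. No paired analysis was possible because replicate numbers follow the order of deposition and pair no mice.

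With 4 obese libraries with node and 3 lean ones without, single libraries decide many calls, obese IgG2a 3 most of all for lymphocyte genes. The epithelium score does not overlap between the diets, so its part cannot be told apart from diet. The B cell score overlaps through lean anti-PD-1 1 only, so its part can hardly be told apart from diet either. Genes under about 1 CPM rest on few counts. The size of the node, the share of it in the piece taken and the RNA per cell were not measured.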

Other observations

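Of 12 adipose progenitor and fibroblast genes 4 rose and 2 fell in the pads with node, with a median of 0.13, and 1 rose and 1 fell with the B cell score. Dpp4 and Cd55, which mark the multipotent progenitors of the interstitium, rose by 1.09 (SE 0.297, adjusted p = 0.0211) and 1.12 (SE 0.209, adjusted p = 0.00335). Cd55 was at 244, 120, 130 and 117 CPM in obese and 42.1 to 82.1 CPM in lean libraries, with no overlap, and is also made by lymphocytes. Icam1, of committed preadipocytes and of activated endothelium, rose by 0.94 (SE 0.282, adjusted p = 0.0305), and Anxa3 by 0.79 (SE 0.137, adjusted p = 0.00227). The collagen-binding proteoglycan gene Lum was at 3.53, 11.5, 19.3 and 6.47 CPM against 29.6 to 63.5 CPM and fell by 2.55 (SE 0.412, adjusted p = 0.00143), and its relative Dcn fell by 0.66 (SE 0.180, adjusted p = 0.0208). Without obese IgG2a 3 the list's counts were 2 and 1. They were 3 and 2 without obese anti-PD-1 3, lean IgG2a 1, lean anti-PD-1 3 or lean anti-PD-1 5.

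Among 14 plasma cell and antibody genes 1 rose, Prdm1, the factor that ends the B cell program (1.17, SE 0.310, adjusted p = 0.0183), and 0 of the 14 rose without obese anti-PD-1 3 or obese IgG2a 3, while 3 did without lean anti-PD-1 1. Of 10 class I antigen presentation genes the 3 immunoproteasome subunits Psmb8, Psmb9 and Psmb10 rose, by 0.89, 0.68 and 0.69, and 0 of the 10 rose without obese IgG2a 1 or obese IgG2a 3. Of 11 liver genes tested Alb and Fgg fell, by 2.08 (adjusted p = 0.00482) and 1.83 (adjusted p = 0.0249), although the list's median was 1.90, and 0 of 7 epidermis and 1 of 13 skeletal muscle genes were called. Of the liver genes 1 fell without obese IgG2a 1 or obese IgG2a 3, and 3 rose without lean anti-PD-1 3. All adjusted p-values are those of edgeR's quasi-likelihood test over all genes.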
